A study of Mus musculus with 8 samples.

Results

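The cytosolic ribosome is built from ribosomal RNA and a fixed set of proteins, named Rpl for the large subunit and Rps for the small one. Members were taken by symbol: every gene on the array whose RefSeq symbol began with Rpl or Rps and a digit, together with Rpsa, Rplp0, Rplp1 and Rplp2, without the Rps6k kinases, the 3 genes whose symbols end in -ps and Rps4x. This gave 87 of the 20887 genes that could be named on the array, and 86 of them were among the 13215 genes tested, the exception being Rpl10l, which was well above background on 1 array. They comprised 75 core genes (45 of the large and 30 of the small subunit), 10 tested paralogs out of 11, and Rps19bp1, which encodes a binding protein of Rps19 and is no ribosomal protein. All 75 core genes were well above background on all 8 arrays, and no member probe was saturated. Rpl37 and Rps27rt could not be matched to a probe, and Rps4l is annotated as a transcribed pseudogene in the table used for names.

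The 2 cell fractions were sorted from mouse bone marrow on a C57BL/6 background, the lineage-negative, Sca-1 and c-Kit positive cells (LSK), which hold the stem cells, and the megakaryocyte and erythroid progenitors (MEP). All marrow carried Cre-ERT2, a recombinase that acts only after drug treatment, and it came from mice with Cre-ERT2 alone (called WT), with Ezh2flox/flox, with JAK2V617F, the activated kinase of myeloproliferative neoplasms, or with both, and it repopulated wild-type CD45.1+ mice after lethal irradiation. Ezh2, the enzyme that methylates histone H3 at lysine 27, was deleted 4 weeks after transplantation, and cells were taken at 2 months. Each of the 8 groups was 1 array made from 20 ng of RNA, all on 1 slide with LSK in one row and MEP in the other, and how many recipients gave the cells is not given in the sources used here. With 1 array a group, each effect was averaged over 4 matched pairs of arrays, so p-values measure only the spread left by an additive model over these arrays, and slide row and cell type cannot be told apart. All 10 of 10 LSK marker genes were above background on every LSK array and all 10 of 10 MEP markers on every MEP array. Many were also above background in the other fraction: 7 to 9 of 10 MEP markers on LSK arrays, and 6 or 7 of 10 LSK markers on MEP arrays. Detection alone thus does not show that the fractions were pure.

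Ribosomal protein mRNAs are among the most abundant in a dividing cell, and their products are needed in equal numbers. Most begin with a C followed by a run of pyrimidines, the TOP sequence, through which mTOR signalling sets their translation together. Loss of single ribosomal protein genes impairs red cell formation in Diamond-Blackfan anemia, and free Rpl5 and Rpl11 activate p53 by binding Mdm2. Paralogs replace a core protein in some cells or have lost that role.

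The annotated start of transcription was read from RefSeq promoters of assembly GRCm38.p6, which held 66 of the 87 members and 55 of the 75 core genes. The pieces that follow run from 15 bases before the start, and capitals mark a C at the start itself with at least 4 pyrimidines after it. Shown are 6 core genes that begin this way and 3 paralogs that do not, since paralogs are set against the core genes throughout.
Rps18 (chr17:33955651-33955680, minus strand): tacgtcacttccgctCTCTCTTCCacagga
Rps6 (chr4:86857353-86857382, minus strand): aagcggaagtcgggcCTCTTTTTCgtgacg
Rps27 (chr3:90213634-90213663, minus strand): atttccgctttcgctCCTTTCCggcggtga
Rpl15 (chr14:18270972-18271001, minus strand): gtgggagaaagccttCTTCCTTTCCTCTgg
Rpl28 (chr7:4792950-4792979, plus strand): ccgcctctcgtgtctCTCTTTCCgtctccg
Rplp2 (chr7:141447636-141447665, plus strand): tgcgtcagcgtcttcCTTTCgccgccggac
Rps27l (chr9:66946071-66946100, plus strand): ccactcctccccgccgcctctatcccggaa
Rpl22l1 (chr3:28805493-28805522, plus strand): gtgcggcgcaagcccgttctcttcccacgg
Rpl36al (chr12:69184053-69184082, minus strand): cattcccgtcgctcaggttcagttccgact
A C with such a run stood exactly at the annotated start in 13 of 65 core promoters (20.0%), in 1 of 12 paralog promoters (8.33%), in 0 of 75 promoters of mitochondrial ribosomal protein genes and in 2.51% of all 32851 promoters. Within 15 bases to either side of the start such a run was found in 66.2% of core promoters, 66.7% of paralog promoters, 49.3% of mitochondrial ribosomal promoters and 40.9% of all promoters. The motif CCGGAAG, bound by Ets factors, was searched on both strands of the 300 bases and was present in 36.9% of core promoters, 16.7% of paralog promoters, 34.7% of mitochondrial ribosomal promoters and 8.86% of all promoters. Rps18 carries it 75 bases before its start, shown in capitals.
Rps18 (chr17:33955722-33955751, minus strand): agaagcaatttCCGGAAGtggacctccggg
The motifs AAGATGGC and TATAAA, searched the same way, were in 10.8% and 9.23% of core promoters against 2.75% and 13.6% of all promoters. CCGGAAG and AAGATGGC can overlap by the bases AAG that end one and begin the other. Annotated starts can differ by some bases from the true ones.

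The core genes moved as a block. A level here is the log2 processed signal minus the log2 of the 75th percentile of the probes on that array. Of the 75 core genes the median level in LSK was 9.72 on the WT array, 9.70 after Ezh2 deletion, 10.14 with JAK2V617F alone and 10.10 with both alterations. The MEP medians, in that order, were 10.31, 10.27, 10.09 and 10.48. The LSK arrays without JAK2V617F were thus the lowest pair, and the JAK2V617F MEP array lay just under the 2 JAK2V617F LSK arrays, so the cell types overlapped. Across the 8 arrays a core gene had a median SD of 0.31, which fell to 0.088 once the core median of each array was taken off. For all genes above background on all 8 arrays the corresponding SDs were 0.376 and 0.421, and for mitochondrial ribosomal protein genes they were 0.488 and 0.286. The 93 other genes with mean levels in the core range had median SDs of 0.30 and 0.155, so their spread also fell once the core median was taken off. The core median comes from the 75 core genes themselves, so part of the fall in their SD is built in. The other sets were centred on the core median and not on their own. These SDs describe 8 arrays that share a scaling step and are given with no test.

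**Figure D1:**
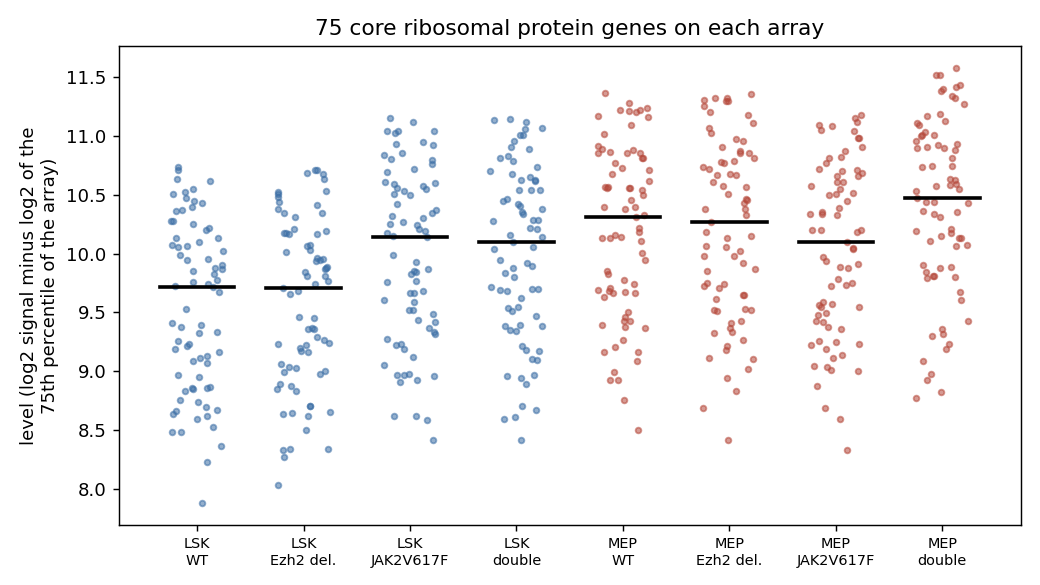
Level of each of the 75 core ribosomal protein genes (points; log2 signal minus the log2 75th percentile of the array) on the 8 arrays, LSK in blue and MEP in red, with the median as a black bar. The medians run from 9.70 in Ezh2-deleted LSK to 10.48 in MEP with both alterations, and the JAK2V617F MEP array, at 10.09, lies among the LSK arrays.

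Before scaling, the same signal hardly differed between the arrays. The median log2 processed signal of the core genes ran from 17.87 to 18.21, a range of 0.336, while the log2 of the 75th percentile ran from 7.60 to 8.37, a range of 0.763. That percentile was highest on the 2 LSK arrays without JAK2V617F (8.28 and 8.37) and lowest on the Ezh2-deleted MEP array (7.60). Saturation would lie at 19.57 and the brightest core gene on any array was at 19.31. The 93 other genes with mean levels in the core range, 8.39 to 11.14, had a median difference between MEP and LSK of 0.37, against 0.42 for the core genes. Whether the block reflects more ribosomal protein mRNA or a lower 75th percentile was not tested, and in sorted bulk cells fewer cells of a type and less RNA per cell cannot be told apart.

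**Figure D2:**
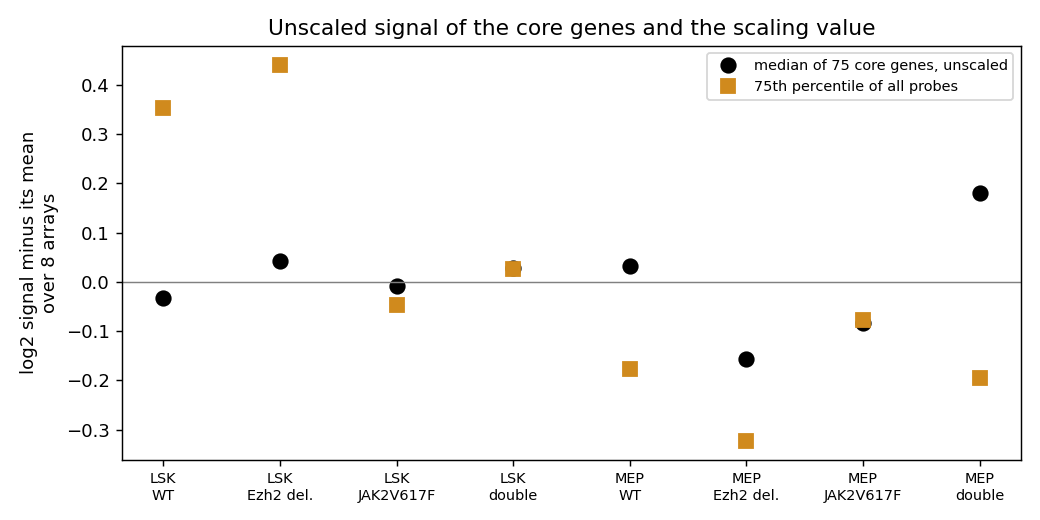
Unscaled median log2 signal of the 75 core genes (black circles) and the log2 75th percentile of all probes (orange squares) on each array, both minus their mean over the 8 arrays. The percentile spans 0.763 and the core median 0.336, and the percentile is highest in WT and Ezh2-deleted LSK.

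Between MEP and LSK, 14 of 75 core genes rose and none fell at an adjusted p under 0.05 (limma, Benjamini-Hochberg over 13215 genes), beside 19.9% of all genes called higher and 20.1% called lower. The share of core genes that rose was thus near that of all genes. Without adjustment, 46 core genes were higher at p under 0.05, beside 27.2% of all genes, and 0 lower. The median core difference was 0.42, with all 75 positive, against 0.12 over all genes, of which 57.8% were positive. The median core difference was 0.62 between the WT arrays, 0.61 between the Ezh2-deleted, 0.06 between the JAK2V617F and 0.39 between the doubly altered ones, and without scaling it was 0.10, -0.15, 0.03 and 0.17. A core gene was higher in MEP in all 4 genotypes in 58 cases, beside 30.8% of all genes. In 44 core genes all 4 MEP arrays lay above all 4 LSK arrays, which held for 18.4% of all genes. The result depended on scaling: after quantile normalization, after scaling to the median of all probes, without scaling and relative to the core median 0 core genes were called, and the median core difference was 0.01, 0.28, 0.03 and 0.05. It also depended on single arrays, since 0 core genes were called without WT LSK, Ezh2-deleted LSK, LSK with both, WT MEP or Ezh2-deleted MEP, 1 without MEP with both, 3 without JAK2V617F LSK and 60 without JAK2V617F MEP.

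Among the genes that rose was Rpl13a, which is also released from the ribosome to silence inflammatory mRNAs. The level of Rpl13a was 9.19, 9.26, 9.68 and 9.80 in LSK (WT, Ezh2 deleted, JAK2V617F and both, the order used from here on) and 10.14, 10.06, 9.88 and 10.43 in MEP. All MEP values lay above all LSK values, with a difference of 0.64 (1.56-fold, SE 0.18, n = 4 against 4, limma adjusted p = 0.0253). Rps18, a protein of the head of the small subunit, was at 8.59, 8.64, 8.96 and 9.10 in LSK and 9.43, 9.27, 9.14 and 9.81 in MEP. Its groups did not overlap either, and the difference was 0.59 (SE 0.18, limma adjusted p = 0.0373). Rpl22 (0.56), Rplp1 (0.54) and Rpl12 (0.53) also rose, with limma adjusted p between 0.0373 and 0.0408. Among the smallest differences were those of Rps3a1 (0.27, adjusted p = 0.195) and Rpl3, the protein next to the peptidyl transferase centre (0.31, adjusted p = 0.152), neither of which passed. Rpl13a and Rps18 were no longer called under any of the 4 other scalings.

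By role, the stalk of the large subunit, which recruits elongation factors, had 1 of 3 genes called, beside 19.9% of all genes called higher: Rplp1 rose by 0.54, while Rplp0 differed by 0.47 (adjusted p = 0.0544) and Rplp2 by 0.37 (adjusted p = 0.0997). Of 20 genes mutated in Diamond-Blackfan anemia 2 rose, again beside 19.9% of all genes, Rpl31 (0.53) among them, and the median difference of the 20 was 0.42. Rps19, the gene most often mutated there, was at 8.63, 8.62, 8.97 and 9.09 in LSK and 9.21, 9.21, 9.01 and 9.61 in MEP. Those groups overlapped, with a difference of 0.43 that did not pass (limma adjusted p = 0.0819). Of the 2 p53-activating members, Rpl5 differed by 0.51 (adjusted p = 0.0579) and Rpl11 by 0.38 (adjusted p = 0.104). Large and small subunit genes had medians of 0.44 and 0.40.

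Of the other lists of the ribosome pathway, those for mitochondrial ribosomal proteins, ribosome assembly and RNA polymerase I had larger median differences between the fractions than the 0.42 of the core genes, while translation factors with TOP mRNAs and regulators of TOP mRNAs did not (0.42 and 0.15). The counts below stand beside 19.9% of all genes called higher. Of 77 tested mitochondrial ribosomal protein genes 48 rose in MEP and none fell, with a median of 0.70 and Mrpl52 highest (1.67, limma adjusted p = 0.000558). Of 60 tested genes for ribosome assembly 46 rose, with a median of 0.73, led by Rrp9, a U3 snoRNP protein (1.37), Mrto4, an assembly factor resembling Rplp0 (1.33), and Bysl (1.27). Of 11 tested genes of RNA polymerase I and its factors 7 rose, with a median of 0.60, among them Taf1c (0.95) and Polr1b (0.88). The list of translation factors with TOP mRNAs had 4 of 20 called, a share near that of all genes, including Eif3m (0.74) and Npm1 (0.65). Npm1 is an assembly gene and was counted in both lists. Of 15 regulators of TOP mRNAs 3 rose, also a share near that of all genes. Among them was Eif4ebp1, the mTOR-controlled repressor of cap-dependent translation (1.11, limma adjusted p = 0.00227). Relative to the core median of each array, 16 mitochondrial ribosomal genes, 11 assembly genes and 1 regulator of TOP mRNAs were called higher in MEP, with 0 of the RNA polymerase I genes (3 at an unadjusted p under 0.05 in limma) and 0 of the translation factors (0 at that p), beside 6.43% of all genes. These lists were described by count alone, with no set test.

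**Figure D3:**
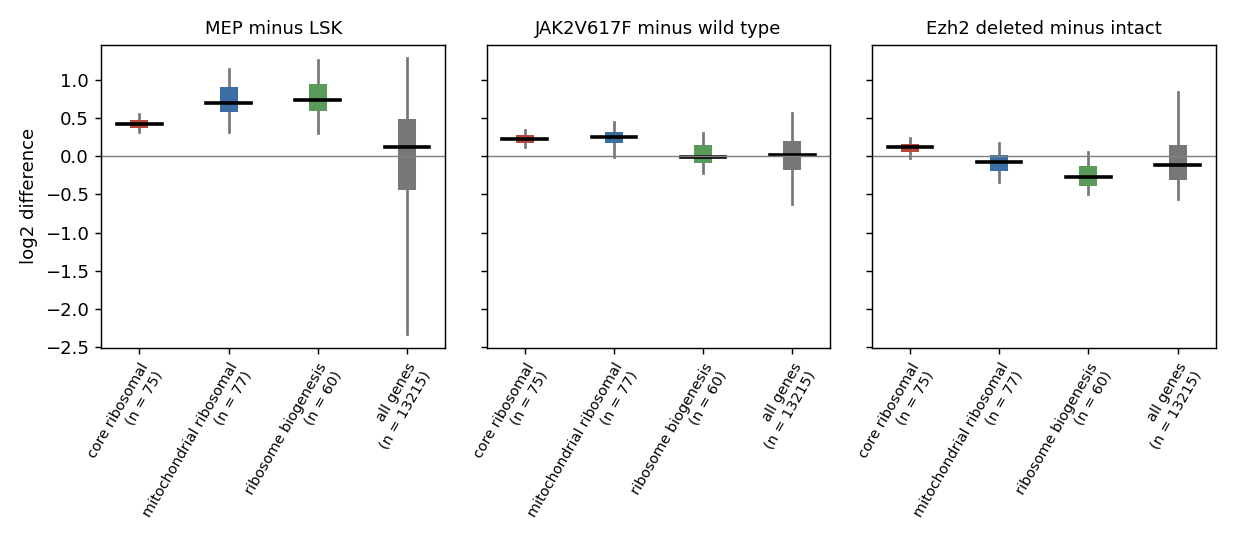
Log2 differences of the 3 averaged effects for core ribosomal (75), mitochondrial ribosomal (77), ribosome assembly (60) and all tested genes (13215); black bar, median; thick bar, middle 50%; thin line, 5th to 95th percentile. The core genes form the narrowest group in each panel; their medians are 0.42, 0.23 and 0.12, values that shift with the scaling, the Ezh2 median to -0.09 when arrays are scaled to the median of all probes.

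JAK2V617F called 0 core genes, and 0 had an unadjusted p under 0.05 (limma), beside 0.219% of all genes called higher and 0.106% called lower, and 10.8% at that unadjusted p. The median core difference was 0.23, all 75 positive beside 51.5% of all genes, but the pairs went apart: 0.42 in Ezh2-intact LSK, 0.44 in Ezh2-deleted LSK, -0.15 in Ezh2-intact MEP and 0.21 in Ezh2-deleted MEP. Without scaling these medians were 0.03, 0.03, -0.05 and 0.33. The averaged median was 0.01 after quantile normalization, with 45 of 75 positive, 0.08 without scaling and 0.16 to 0.35 when 1 array was left out, without JAK2V617F LSK and without JAK2V617F MEP in that order. No core gene was higher in all 4 pairs, which held for 7.31% of all genes. The largest values belonged to Rps25, needed for translation from some viral internal entry sites (0.37, limma adjusted p = 0.544), and Rps21 (0.37). Among the smallest were those of Rpl21 (0.01) and Rpl23 (0.05). Fitted within each cell type, the median was 0.43 in LSK and 0.03 in MEP, with 0 core genes called in either, and 2 in LSK and 0 in MEP at an unadjusted p under 0.05. The background was 0.174% of genes called in each fraction, and 17.6% in LSK and 7.83% in MEP at the unadjusted p. The effect was lower in MEP than in LSK for all 75 core genes on the scaled values, while it was higher for 40.3% of all genes, and the unscaled medians above do not keep that order. Of the core genes, 0 passed the limma test of that difference and 0 had an unadjusted p under 0.05, beside 0% and 11.4% of all genes. The largest such values were those of Rps2 (-0.64, limma adjusted p = 0.458), Rpl8 (-0.62) and Rpl27 (-0.60). Mitochondrial ribosomal genes gave 0 calls and a median of 0.24. Their difference of the effect, MEP minus LSK, was negative for all 77, with a median of -0.75 against -0.40 for the core genes. Of these 77, 0 passed the limma test of that difference and 25 had an unadjusted p under 0.05. For ribosome assembly genes it was negative in 55 of 60, with a median of -0.52. That order was thus not particular to the core genes. Granulocyte markers moved with JAK2V617F: 5 of 10 rose and none fell, and their summed level, as log2, lay at 9.13 and 9.67 on LSK arrays without JAK2V617F and 10.1 and 11.5 with it, and in MEP at 4.67 and 5.69 without and 7.50 and 8.35 with it. Monocyte markers had 1 of 7 called higher and all 7 positive, with summed levels of 5.01 and 4.49 without and 6.90 and 5.77 with JAK2V617F in LSK, and 3.30 and 3.44 without and 3.93 and 3.92 with it in MEP. MEP markers, like the core genes, had a higher median difference with JAK2V617F in LSK (0.77) than in MEP (-0.45), and the difference of the effect was negative for 10 of 10. Of these, 0 passed the limma test of that difference and 7 had an unadjusted p under 0.05. Their summed level was 5.80 and 5.60 without and 6.59 and 6.49 with JAK2V617F in LSK, and 9.85 and 9.92 without and 9.27 and 8.76 with it in MEP. B cell markers went the other way, with all 7 tested negative, a median of -1.71 and 1 called, Blnk (-2.20, limma adjusted p = 0.0194). Some of them were well above background on few arrays, Ebf1 on 2. LSK markers had a median of -0.67 with JAK2V617F in LSK, negative for 7 of 10, and 0.48 in MEP, with 0 called in either. The part of these marker lists in the core values was not tested.

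Ezh2 deletion called 0 core genes, again with 0 at an unadjusted p under 0.05 (limma), beside 0.658% of all genes called higher and 0.053% called lower, and 17.9% at that unadjusted p. The median core difference was 0.12, with 67 of 75 positive beside 37.9% of all genes, against a median of -0.11 over all genes, and it was -0.09, with 9 of 75 positive, when arrays were scaled to the median of all probes. Pair by pair the median was 0.03 in WT LSK, 0.03 in JAK2V617F LSK, 0.01 in WT MEP and 0.38 in JAK2V617F MEP. Higher in all 4 pairs were 17 core genes, beside 10.6% of all genes. Leaving out JAK2V617F MEP took the averaged median to -0.01. At the upper end stood Rpl34 (0.26, limma adjusted p = 0.470), Rps27, also called metallopanstimulin (0.25), and Rps13 (0.24), and at the lower end Rpl28 (-0.13), Rps2 (-0.12) and Rpl21 (-0.10). Within LSK and within MEP 0 core genes were called or had an unadjusted p under 0.05, beside 0.0984% and 0.499% of all genes called and 9.22% and 12.8% at the unadjusted p. Differences between the cell types were largest for Rpl39 (0.30), Rpl35a (0.26) and Rps27 (0.26), and 0 core genes passed the limma test or had an unadjusted p under 0.05, beside 0.00757% and 5.3% of all genes. The interaction of JAK2V617F with Ezh2 deletion likewise gave 0 core calls in limma and 0 at an unadjusted p under 0.05, beside 0% and 3.34% of all genes, and a median of 0.18. Ribosome assembly genes had a median of -0.27 with deletion and 0 calls, with 8 lower at an unadjusted p under 0.05. Xist, the RNA of the inactive X, reached 1.57 to 2.99 after Ezh2 deletion and no more than -3.07 with Ezh2 intact, so the sex of the marrow and Ezh2 status cannot be told apart. The 3 X-linked core genes, Rpl10, Rpl36a and Rpl39, differed by 0.0015, 0.07 and 0.20 with deletion and were not called. B cell markers also moved: 2 of 7 tested rose with deletion and none fell, with a summed level, as log2, of 1.82 to 4.51 on Ezh2-intact and 2.97 to 6.35 on Ezh2-deleted arrays, and their part in these values was not tested. Of 14 tested p53 target genes 3 rose with deletion, Perp (1.79), Fas (1.37) and Phlda3 (1.05), while Rpl5 and Rpl11 differed by 0.14 and 0.11.

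The array of MEP with both alterations departed most from the common profile. Relative to the core median and to each gene's own mean, core genes had an SD of 0.17 there and 0.0502 to 0.0994 on the other 7 arrays. On it 35 of 75 core genes had their largest departure, and WT LSK came next with 13. Among the lowest there were Rpl28 (-0.38), Rps2 (-0.32), Rpl23 (-0.30) and Rpl4 (-0.25). Among the highest were Rps25 (0.33), Rps18 (0.32), Rpl17 (0.30) and Rpl34 (0.29). On the WT LSK array Rpl13a (-0.23) was among the lowest and Rpl21 (0.19) and Rpl28 (0.13) among the highest. Rps25 (-0.20) and Rpl28 thus had opposite signs on these arrays. These departures are descriptions of single arrays without replicates.

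Rps4l left the block. It is an S4-like gene on chromosome 6, read by 1 probe well above background on all 8 arrays. Its level was 2.34, 1.38, 0.92 and -0.44 in LSK and 1.98, 1.40, 0.21 and -0.53 in MEP. In both fractions WT was highest and the arrays with both alterations lowest, and all 4 JAK2V617F arrays lay below all 4 others, as for 0.802% of all genes. The JAK2V617F difference was -1.74 (3.33-fold lower, SE 0.18, n = 4 against 4, lower in 4 of 4 pairs as 8.8% of all genes were, limma adjusted p = 0.0164). Relative to the core median it was -1.94 (adjusted p = 0.0285), beside 0.0832% of all genes called lower on that scale. All 14 alternatives that kept the 8 arrays kept the call, with values from -1.94 to -1.44. Leaving out Ezh2-deleted LSK, Ezh2-deleted MEP, JAK2V617F MEP or MEP with both raised the adjusted p to 0.0507, 0.0516, 0.0878 and 0.126. Within LSK the difference was -1.62 and within MEP -1.85, neither called (adjusted p = 0.0857 and 0.0765). With Ezh2 deletion Rps4l was lower in 4 of 4 pairs, as 27% of all genes were, with a difference of -0.91 that missed the threshold (limma adjusted p = 0.0789) and passed it with normexp background correction, with the trended prior, with the filter of all 8 arrays and at the looser threshold. MEP and LSK differed by -0.29 (adjusted p = 0.229), and relative to the core median Rps4l fell by 0.66 in MEP (adjusted p = 0.0333), beside 25% of all genes called lower. None of the 10 nearest tested genes on chromosome 6 was called with JAK2V617F, their differences lying between -0.36 for Klhl42 and 0.23 for Etfbkmt. Since 309 RefSeq pseudogenes carry Rpl or Rps names and no probe sequences were at hand, signal from related copies on this probe cannot be told apart from that of Rps4l.

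**Figure D4:**
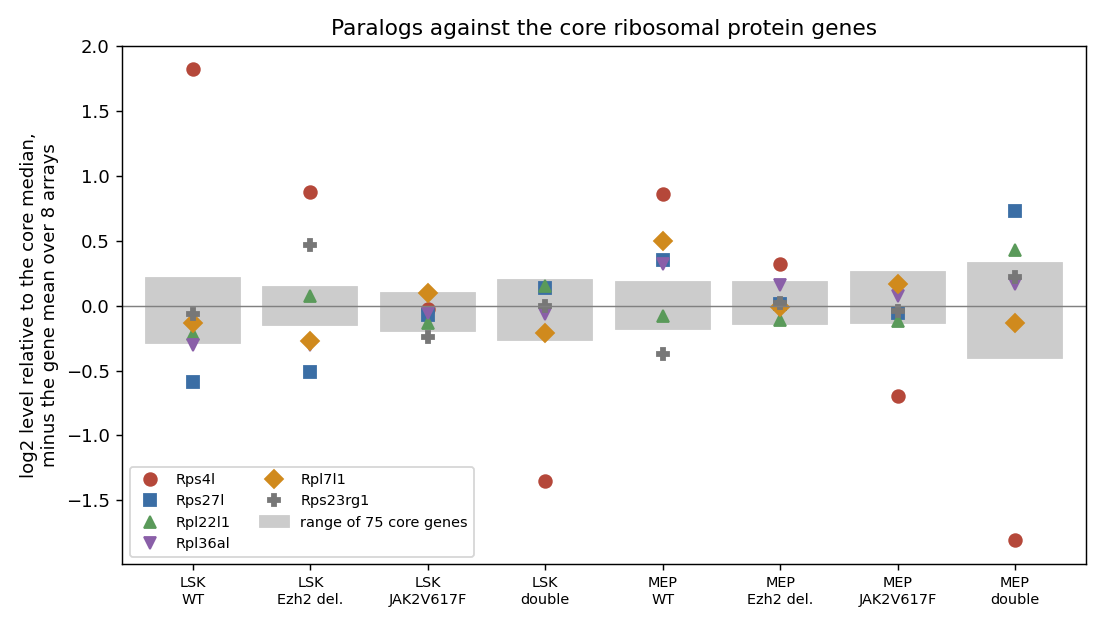
Level of 6 paralogs relative to the core median of each array, minus the gene's own mean over 8 arrays (log2); grey boxes, the range of the 75 core genes. Rps4l lies above the core range on the 4 arrays without JAK2V617F, below it on 3 of the 4 with it and within it on JAK2V617F LSK, while Rps27l is lowest in WT and Ezh2-deleted LSK and highest in MEP with both alterations.

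Of the other paralogs 3 rose in MEP, beside 19.9% of all genes. Rps27l, a p53 target that acts in the response to DNA damage, was at 6.69, 6.76, 7.64 and 7.80 in LSK and 8.23, 7.85, 7.60 and 8.77 in MEP. The JAK2V617F MEP array lay among the LSK values, and the difference was 0.89 (1.85-fold, SE 0.29, higher in 3 of 4 pairs, limma adjusted p = 0.0418). Its parent Rps27 differed by 0.36 (adjusted p = 0.131). Rpl36al, an autosomal copy of the X-linked Rpl36a, stood at 7.18, 7.17, 7.86 and 7.81 in LSK and 8.41, 8.20, 7.94 and 8.41 in MEP. Every MEP value was above every LSK value, with a difference of 0.73 (SE 0.22, limma adjusted p = 0.0297), against 0.34 for Rpl36a (adjusted p = 0.106). Rpl7l1, a homologue of Rpl7 with a role in ribosome assembly, rose by 0.63 (SE 0.22, limma adjusted p = 0.0498), and Rpl7 differed by 0.40 (adjusted p = 0.0938). Relative to the core median, without scaling or scaled to the median of all probes, none of the 3 was called (limma adjusted p between 0.0623 and 0.335), nor were Rps27l and Rpl36al after quantile normalization or Rpl7l1 with no filter on dim probes. Each of the 3 also lost the call when any single array other than JAK2V617F LSK or JAK2V617F MEP was left out, with a limma adjusted p of up to 0.130 for Rps27l, 0.103 for Rpl36al and 0.165 for Rpl7l1. Rps19bp1 rose by 0.77 (limma adjusted p = 0.0144) and was not called relative to the core median (0.40, adjusted p = 0.103), without scaling (adjusted p = 0.0819), or without WT LSK, Ezh2-deleted LSK or WT MEP (adjusted p between 0.0528 and 0.0577). Rpl22l1, which can stand in for Rpl22, was at 7.76, 8.04, 8.27 and 8.51 in LSK and 8.49, 8.42, 8.24 and 9.16 in MEP. Its groups overlapped and the difference of 0.43 did not pass (adjusted p = 0.111), while Rpl22 rose by 0.56 (adjusted p = 0.0378). Rpl32l (0.48) and Rpl37rt (0.42) lay near the core median difference and were not called. Their mean levels, 9.85 and 10.71, were in the range of the core genes, 8.39 to 11.14. Whether their probes also read the mRNAs of related core genes was not tested, since no probe sequences were at hand. Rps23rg1, a retrotransposed copy of Rps23, differed by 0.29 between MEP and LSK, a sign that turned without scaling, and by 0.43 with Ezh2 deletion, higher in 4 of 4 pairs (limma adjusted p = 0.246).

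The remaining paralogs were at the edge of detection. Rpl39l, a paralog known from male germ cells, was well above background only in WT LSK (-2.36) and WT MEP (-1.13). On the other 6 arrays it was not well above background, with values from -5.46 to -4.26. Taking the lowest signal well above background where the probe was dimmer, it was 3.15-fold lower with JAK2V617F and 2.15-fold lower with Ezh2 deletion. Measured means were -5.16 against -3.09 and -4.83 against -3.42. The folds are no strict bounds, since other arrays of each reference group were also not well above background. Both differences rest on WT LSK and WT MEP, the same arrays through which Rpl39l passed the filter. Neither was called (limma adjusted p = 0.222 and 0.251), and its parent Rpl39 differed by 0.34 and 0.20. Rpl3l, the striated muscle form of Rpl3, was well above background on 2 arrays, both LSK, at -3.27 and -2.04 on the WT and Ezh2-deleted arrays. Rpl10l, the retrogene that stands in for Rpl10 in the male germ line, was well above background on MEP with both alterations alone (-2.34).

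Probes of 1 core gene mostly moved together, and Rps24 was the clearest exception. Among 51 core genes with several tested probes, the median range of the MEP to LSK difference between probes of a gene was 0.0827. In a fit of 17297 single probes, 34 of 161 core probes were higher and 1 lower in MEP, beside 19.8% and 19.1% of all probes. The lower one is assigned to the Rps24 transcript NM_011297, and single probes were fitted after their values were seen. Its level was 9.83, 9.97, 8.18 and 9.20 in LSK and 6.01, 6.52, 5.38 and 6.47 in MEP. Every MEP array lay below every LSK array, with a difference of -3.20 (9.21-fold lower, SE 0.25, lower in 4 of 4 pairs, limma adjusted p = 6.46e-05 over all probes). It was called under every scaling tried (-3.59 to -3.20) and without any single array (-3.41 to -2.96). Rps24 pre-mRNA is spliced to several forms that differ near the end of the coding sequence. The probe assigned to NM_207635, which stands for Rps24 elsewhere, was at 10.13, 10.16, 10.53 and 10.61 in LSK and 10.67, 10.77, 10.55 and 10.92 in MEP, and its difference of 0.37 did not pass (limma adjusted p = 0.110). The third probe, NM_207634, differed by 0.40 (adjusted p = 0.126), a sign that turned to -0.02 after quantile normalization. Which transcripts each probe reads was not tested, since probe sequences were not used here. Rpl22 also had probes of opposite sign: the one used rose by 0.56, and a dimmer one stood at 5.15, 5.05, 4.48 and 4.49 in LSK and 4.41, 4.57, 4.57 and 3.76 in MEP. That second probe differed by -0.46 and missed the threshold (limma adjusted p = 0.0995), and passed it after quantile normalization, with normexp and without scaling. The sign also differed between probes of Rpl6, where a probe well above background on all 8 arrays, but not the one used, gave -0.18.

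**Figure D5:**
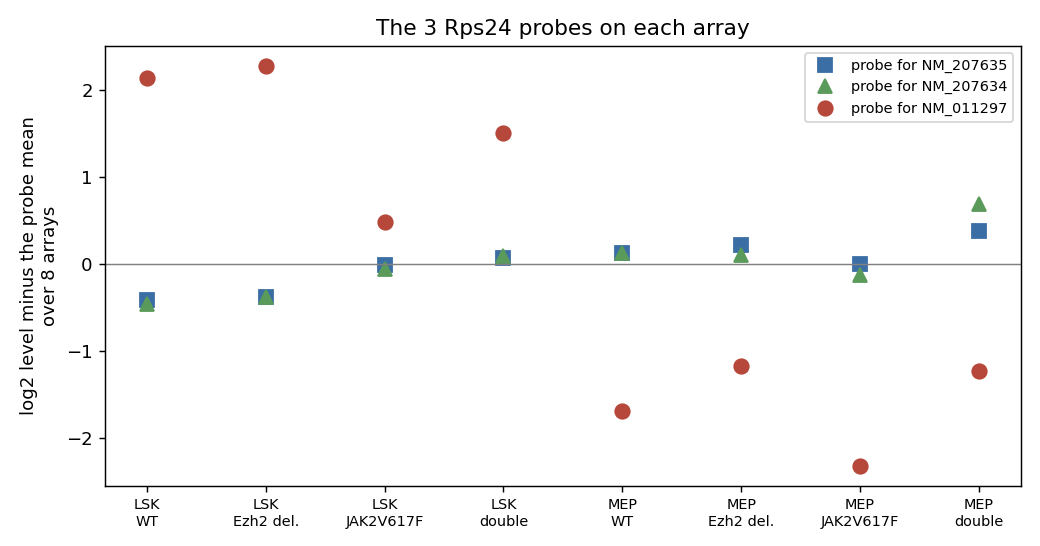
Level of the 3 Rps24 probes on the 8 arrays, each minus its own mean (log2). The NM_011297 probe is lower on all 4 MEP arrays, by 3.20 on average, while the other probes differ by 0.37 and 0.40, the latter with a sign that turns after quantile normalization.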

How the data were processed

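RNA from 8 sorted samples was labelled with Cy3 and hybridised to 1-colour Agilent arrays on 1 slide. Per the file headers, the authors' scanner files came from Feature Extraction 10.7.1.1, which gives each spot an intensity after background subtraction. The deposited series table holds a ratio, each processed intensity divided by a constant of its array, and served as an alternative. Here log2 processed signal minus the 75th percentile of each array was used, without control spots, and spots of a probe were averaged. Non-uniform spots were left out only where the probe had another spot, so most of these few spots were kept. RefSeq symbols (GRCm38.p6) were matched for 27509 of 55681 probes (49.4%), covering 20887 genes. A gene was represented by its brightest probe and tested if that probe was well above background on at least 2 arrays. Per array, 39.8% to 48.9% of probes were above background. With 1 array a group, precision is set by how few arrays there are.

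An additive model was fitted in limma 3.58.1 (R 4.3.3) with terms for cell type, JAK2V617F and Ezh2 deletion over all 8 arrays, with p-values adjusted by Benjamini-Hochberg over all tested genes. A nested model gave effects within each cell type and an interaction model gave JAK2V617F by Ezh2 deletion. The fit was tested on simulated data. Of 50 genes given a log2 change of 0.5 it recovered 0 for cell type, 2 for JAK2V617F and 3 for Ezh2 deletion. At a log2 change of 2 it recovered 47, 45 and 45. A count of 0 core genes called therefore does not show that core genes were unchanged, since log2 changes of 0.5 were mostly missed. In the simulation only a few genes were changed for each term, whereas 19.9% of all genes were called higher and 20.1% lower in MEP. The adjustment was thus stricter there, and the simulated recovery for cell type does not carry over to the real comparison of MEP and LSK. Genes were named by rule: every paralog and its parent, the stalk genes, up to 6 called core genes each way with 1 sign in all 4 pairs (or, where fewer than 3 passed, up to 3 with the largest change), up to 3 core genes with the largest difference of effect between cell types, core genes whose probes disagree in sign, and up to 3 calls of each other list. Rps19, Rpl5, Rpl11, Xist and the per-array departures were added after their values were seen. Some genes named by the rule are counted but not reported here. The members and lists were chosen with earlier results of these data known, and the fall of Rps4l is no independent support. Alternatives covered background correction, scaling, filters, probe summary, variance prior, threshold and leaving out each array. No scaling, scaling to the core median and the single-probe results were chosen after seeing the data.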

Additional observations from a re-analysis of the deposited data

Results flagged for a closer look

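For 8 genes among those named, the JAK2V617F difference was positive in both LSK pairs and negative in both MEP pairs. The difference of the effect, MEP minus LSK, was -0.48 for Rpl10, -0.19 for Rpl21, -0.4 for Rpl23, -0.62 for Rpl8, -0.5 for Rplp0, -0.41 for Rplp2, -0.64 for Rps2 and -0.65 for Rps19bp1. The nested limma fit tested these differences and none passed (adjusted p from 0.455 to 0.790). In all, 11 of 75 core genes had this pattern, beside 13.3% of all genes tested, and 0 the opposite one, beside 4.28%.

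With Ezh2 deletion, Rpl10 and Rplp2 were lower in both LSK pairs and higher in both MEP pairs, with differences of 0.23 and 0.17 that did not pass (limma adjusted p = 1.00). The same pattern was seen in 12 of 75 core genes, beside 2.76% of all genes tested, and its opposite in 0, beside 3.94%. All of these signs are those of values scaled to the 75th percentile.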

How the results depend on the processing

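The 14 core genes higher in MEP became 23 with normexp, 30 with only genes above background on all 8 arrays, 7 with no filter, 31 with a trended prior, 48 at an adjusted p under 0.10, and 0 after quantile normalization, scaling to the median of all probes, no scaling or scaling to the core median. Leaving out each array gave 0 to 60. With the mean of all probes of a gene 1 core gene, Rps24, was lower. The median core difference was 0.0071 after quantile normalization and 0.033 without scaling, and the Ezh2 median was -0.095 with scaling to the median of all probes. The median of all genes moved from 0.12 to -0.26 for MEP against LSK without scaling and to -0.25 relative to the core median, and from -0.11 to -0.33 for Ezh2 deletion with scaling to the median of all probes. The share of calls higher in MEP was 49.7%, and 34.0%, 20.2% and 72.7% with all-probe scaling, no scaling and no filter.

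Signs of uncalled values turned as follows. Quantile normalization gave JAK2V617F Rpl37rt -0.017, Ezh2 Rpl37rt -0.021 and Rpl3l -0.15, and the Rps24 probe NM_207634 -0.015. Scaling to the median of all probes gave Ezh2 values of -0.011 for Rpl32l, -0.17 for Rpl36al, -0.14 for Rpl37rt and -0.18 for Rpl3l. Normexp gave 0.032 for Rpl3l between MEP and LSK, and a common floor gave -0.016 for Rpl3l with Ezh2 deletion. Rps23rg1 between MEP and LSK was -0.096 without scaling and -0.082 relative to the core median. Relative to the core median, JAK2V617F values were -0.019 for Rpl37rt, -0.040 for Rpl7l1, -0.013 for Rps19bp1 and -0.030 for Rps23rg1, and Ezh2 values -0.022 for Rpl36al and -0.031 for Rpl3l. Leaving out each array gave ranges across 0 between MEP and LSK for Rpl39l (-0.082 to 0.95) and Rpl3l (-1.54 to 0.00025), with JAK2V617F for Rpl3l (-1.53 to 0.013), and with Ezh2 deletion for Rpl36al (-0.15 to 0.21), Rpl37rt (-0.010 to 0.15), Rpl3l (-0.60 to 0.94) and Rps27l (-0.080 to 0.52). The cause was not tested.

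No paired analysis was possible because each group is 1 array and all groups share only replicate number 1, so that number forms no block. Arrays are matched by genotype and cell type through the terms of the additive fit. Leaving out 1 array leaves a cell with no array, and the additive fit then assumes equal spread. Rpl39l, Rpl3l and Rpl10l lie near background, which limits what their values can show.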
